A study of Homo sapiens with 4 samples.

Results

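Human chromosome 14, band q32, holds a long run of imprinted miRNA genes, and the values of 33 of these miRNAs are described here in LNCaP cells given increasing doses of an androgen. The 33 were chosen by their names from the 455 human miRNA probes of a custom array, and all 33 were on the array. The rule used no signal, but the list was drawn up with earlier results of these data known. MiR-494, the member with the highest signal at 1 and 10 nM, is set against the other 32. LNCaP is an androgen-responsive line established from a human prostate adenocarcinoma. The labels describe 24 hours of culture without androgen, in 10% serum stripped with charcoal, before the synthetic androgen R1881 was given at 0, 0.1, 1 or 10 nM. All 4 groups share the cell line and the androgen withdrawal, and each dose has 1 array of Cy3-labelled total RNA. The time in R1881 is not given in the sources used here. With 1 array per dose, no ratio between doses has an error of its own.

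The cluster lies in the DLK1-DIO3 domain, in which these miRNAs are cut from long non-coding transcripts of the maternally inherited chromosome, while the protein genes DLK1, RTL1 and DIO3 are read from the paternal one. Its miRNAs are known for high levels in brain, embryo and placenta. Several of them, miR-127, miR-136, miR-431 and miR-433 among them, lie antisense to RTL1. The labelled cell type was checked first, with lists of miRNAs. Of 8 listed for prostate epithelium, 7 were detected on at least 1 array: miR-141, miR-200a, miR-200b, miR-200c, miR-148a, miR-125b and miR-21. How particular each is to epithelium was not tested. MiR-375 was detected on no array. None of 4 blood, 3 muscle, 3 neuronal and 1 liver markers was detected. Of 5 stromal or endothelial markers, miR-214 was detected, at 10 nM alone.

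The mature sequences below are those of RefSeq on assembly GRCh38.p14, in which all 33 names found an entry on the plus strand of chromosome 14. The probes' own letters are not part of the tables used, and names without an arm were paired with an arm from naming history. That pairing was not checked against the probes. The seeds, shared stretches and G and C content given for those names rest on it. From miR-337 to miR-410 the members span chr14:100874553-101065981, or 191 kb. A gap of 111 kb divides 7 members, miR-337 to miR-370, from the other 26, miR-379 to miR-410. MiR-494 stands in the second group at chr14:101029681-101029702. The sequences shown are those of miR-494, of its nearest members on either side, and of the members with the next highest signals, each with its seed (bases 2 to 8, which pair with target mRNAs) in capitals:
miR-494: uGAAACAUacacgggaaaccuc
miR-323: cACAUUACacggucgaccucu
miR-329: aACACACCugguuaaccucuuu
miR-495: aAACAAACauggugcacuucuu
miR-432: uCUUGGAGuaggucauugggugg
miR-433: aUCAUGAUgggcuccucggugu
miR-485-5p: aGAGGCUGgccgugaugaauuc
The 33 members carry 32 different seeds, so the cluster is not a seed family. The exception is miR-376a with miR-376b, a pair known for adenosine-to-inosine editing in brain:
miR-376a: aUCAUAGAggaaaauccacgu
miR-376b: aUCAUAGAggaaaauccauguu
No other member has the seed of miR-494. The longest stretch that another member shares with miR-494 is 7 bases, found in miR-323 and in miR-299-5p, and the median over the 32 is 4 bases. The stretch shared with miR-323 is shown in capitals:
miR-494: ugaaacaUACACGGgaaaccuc
miR-323: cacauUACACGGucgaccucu

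Nearly the whole cluster stayed at background at every dose. Levels are given as net signal, the probe's intensity minus the median intensity of that array's 604 probes with 2 mismatched bases. A miRNA counted as detected above that array's mismatch median plus 3 scaled median absolute deviations, which was a net signal of 147, 151, 139 and 144 at 0, 0.1, 1 and 10 nM. By this rule 2 of the 33 members were detected on at least 1 array, miR-494 and miR-432, or 6.06%, beside 17.6% of all 455 human miRNAs. In order of dose the arrays detected 0, 0, 1 and 2 members, beside 13.6%, 10.3%, 13.4% and 16.3% of the 455. The median net signal of the 33 members was 2.25 on the untreated array, 19.75 at 0.1 nM, 2 at 1 nM and 7.50 at 10 nM, and that of the 455 was 14.5, 33.25, 14.75 and 29.75 in the same order. A net signal near 0 is the level of a mismatch probe, so these values set a limit for the method and do not show that the miRNAs were absent.

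**Figure D1:**
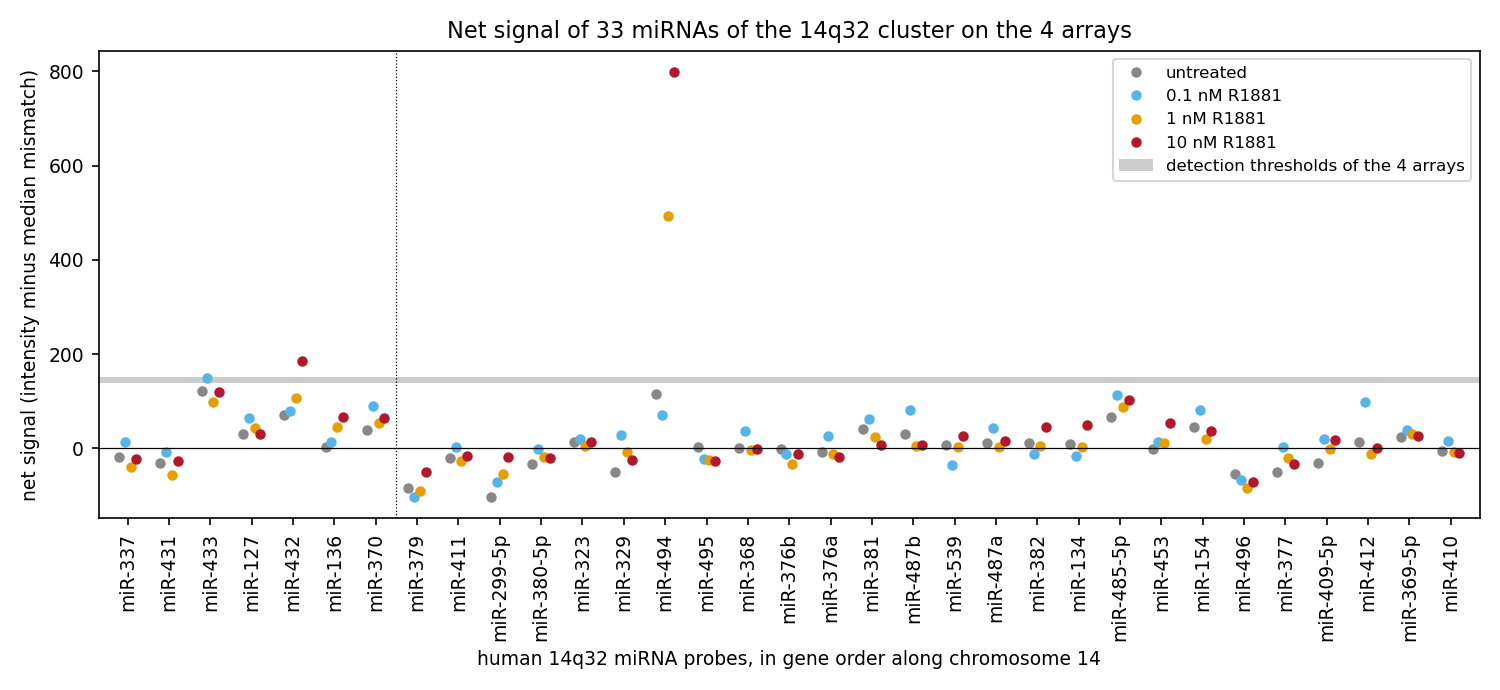
Net signal (intensity minus the array's median mismatch signal) of the 33 members in gene order along chromosome 14, 1 point per array; the grey band covers the 4 detection thresholds, 139 to 151, and the dotted line marks the 111 kb gap. MiR-494 at 1 and 10 nM (493.75 and 798.75) stands above the band, miR-432 at 10 nM (185) just above it, and the other members at or below it.

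MiR-494 had net signals of 116.25 on the untreated array, 71.5 at 0.1 nM, 493.75 at 1 nM and 798.75 at 10 nM. It thus passed the detection threshold at the higher doses, 1 and 10 nM, and stayed under it at 0 and 0.1 nM. Among the 455 human probes it ranked 73rd untreated and 129th at 0.1 nM, against 32nd at 1 nM and 25th at 10 nM. Signals were then corrected with normexp, quantile normalised and read on the log2 scale, on which ratios to the untreated array were 1.55 at 10 nM, 1.19 at 1 nM and -0.50 at 0.1 nM. Because the untreated array did not detect miR-494, the level there was set at the lowest level of any human miRNA detected on it. Read so on this scale, miR-494 was at least 2.62-fold higher at 10 nM and at least 2.03-fold higher at 1 nM than untreated. Other scalings gave log2 ratios from 1.01 to 2.54 at 10 nM and from 0.74 to 1.88 at 1 nM. The lowest, without background correction, lie below these bounds, which are 1.39 and 1.02 on the log2 scale. At 0.1 nM no fold is given, since neither array detected miR-494. Between the arrays that did detect it, miR-494 was 1.29-fold higher at 10 nM than at 1 nM, a log2 ratio of 0.37. The ratio of the net signals themselves was 1.62, and other scalings gave log2 ratios from 0.27 to 0.80.

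Counts of miRNAs at 2-fold or more are restricted to those detected on at least 1 of the arrays compared, and 1 array against 1 allows no test. At 10 nM, 1 of 2 such members, miR-494, was higher by 2-fold or more, beside 4 of 79 human miRNAs past that mark (5.06%), of which 3 were higher (3.8%) and 1 lower (1.27%). At 1 nM, miR-494 was the single member compared and the single human miRNA of 66 at 2-fold or more (1.52%). It missed that mark at 1 nM without background correction, with a log2 ratio of 0.74. Both members entered these counts only through a treated array, since neither was detected untreated, so the filter admitted them where they were high and the counts are descriptions. At 0.1 nM no member was detected on either array, while 5 of 65 human miRNAs were lower (7.69%) and 0 were higher.

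A straight line over the 4 dose steps was fitted with limma across the 80 human miRNAs detected on at least 1 array. Both members entered this and the other fits of the 80 only through treated arrays, where they were high. Their slopes and p-values are therefore descriptions. The slope of miR-494 was 0.63 ± 0.22 log2 per step (SE, 95% interval 0.02 to 1.25), with a limma unadjusted p of 0.0456 and an adjusted p of 0.498. That of miR-432 was 0.17 ± 0.08, with a limma adjusted p of 0.514. Limma called 0 of the 80 at an adjusted p under 0.05 (0%), with 7 at an unadjusted p under 0.05 (8.75%), of which miR-494 had the highest p. Over all 455 human probes, detected or not, the same fit gave the miR-494 slope a limma adjusted p of 0.461 and called 0. The 2 residual degrees of freedom measure the spread around the line and not between cultures. When every match probe was reduced by its own mismatch signal and the arrays were then centred on the 40 miRNAs detected throughout, the limma adjusted p of the miR-494 slope was 0.0303. In that setting limma called 2 of the 80 human miRNAs, miR-494 among them. With the same subtraction and no centring, 0 of the 80 were called and the limma adjusted p of the miR-494 slope was 0.444. In the fit on quantile normalised values, without the 10 nM array it was 0.996 and without the 0.1 nM array 0.061.

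The mismatch probe of human miR-494 moved apart from the match probe, whereas the mouse miR-494 probe moved with the match probe. The probe for human miR-494 with 2 mismatched bases had net signals of -37, -62, -69.25 and -95.25 at 0, 0.1, 1 and 10 nM, below the array's mismatch median on each. The match probe therefore exceeded its own mismatch probe by 153.25, 133.5, 563 and 894 in order of dose. Over the other 32 members this excess was at most 73.5, 103, 89.25 and 84 on the same arrays. MiR-494 had the highest excess of the cluster on each array, also on the arrays where it was not detected. Among all human probes with a mismatch signal it ranked 58th of 451 untreated, 49th of 449 at 0.1 nM, 27th of 452 at 1 nM and 20th of 450 at 10 nM. The probe for mouse miR-494 had net signals of 7.75, -47.5, 127 and 391.5 in order of dose. It was detected at 10 nM alone, where it was at least 1.59-fold higher than untreated on the normalised scale. No fold is given at 1 or 0.1 nM. Both match probes were thus lowest at 0.1 nM and highest at 10 nM, while the mismatch probe was lowest at 10 nM.

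**Figure D2:**
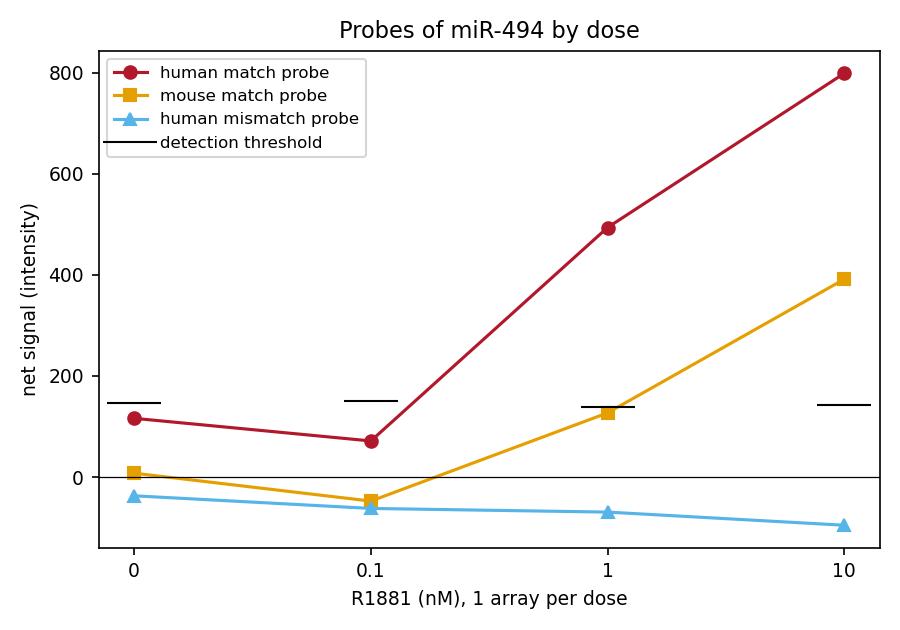
Net signal (intensity) of the human match, mouse match and human mismatch probes of miR-494 on the arrays at 0, 0.1, 1 and 10 nM R1881, with the detection threshold of each array as a bar; lines join single arrays. The human probe reaches 799 and the mouse probe 392 at 10 nM, and the mismatch probe stays below 0.

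Genes of the cluster close to miR-494 did not share its signal. Within 10 kb of miR-494 lie 7 members, miR-379, miR-411, miR-299-5p, miR-380-5p, miR-323, miR-329 and miR-495. None was detected on any array, and their net signals at 10 nM ran from -49.25 to 14.25, against -102.75 to 13.25 on the untreated array. MiR-329, made from a pair of neighbouring genes, was the nearest member upstream. The copy used here, MIR329-1, lies at 2.83 kb, and the other copy was not placed. MiR-329 had -50.25, 28, -8 and -25.25 in order of dose. MiR-495, the nearest downstream at 4.10 kb, had 2.25, -22.25, -25.5 and -25.75. MiR-323, which shares the 7-base stretch with miR-494, had 13.25, 19.75, 5.25 and 14.25, a range of 14.5 between arrays. These values lie far under the thresholds. Of the 3, only miR-495 had a lower net signal at each dose step, and its mismatch probe also fell, from 2.5 untreated to -68.75 at 10 nM. The log2 ratios of miR-495 did not order by dose, at -0.55, -0.40 and -0.54 at 0.1, 1 and 10 nM. Over the 7 members within 10 kb, the median log2 ratio to untreated was -0.06 at 10 nM (3 of 7 higher), -0.11 at 1 nM and 0.05 at 0.1 nM. MiR-299-5p, with the other 7-base stretch, had -102.75, -71.75, -53.5 and -18.5, higher at each dose but below the mismatch median throughout.

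The second detected member, miR-432, lies in the group of 7 upstream of the gap. Its net signals were 71.75 untreated, 80.25 at 0.1 nM, 107 at 1 nM and 184.5 at 10 nM, which placed it above the threshold of 144 on the last array alone. Its log2 ratios to untreated were 0.42, 0.32 and -0.07 at 10, 1 and 0.1 nM. No fold is given, since its normalised level at 10 nM was under the lowest level detected on the untreated array. Its mismatch probe stood at 101.5, 102.5, 100.75 and 102.75, higher than the match probe at 0 and 0.1 nM but lower by 81.75 at 10 nM. The signal of miR-432 at 0 and 0.1 nM was therefore no higher than that of its mismatched copy.

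MiR-433, which has been reported to bind the FGF20 mRNA in human cells, came next, with net signals of 122.25, 149.25, 99.5 and 119.25 in order of dose. At 0.1 nM its margin to the threshold of 151 was -1.98, the smallest shortfall of any undetected member. Its mismatch probe had 133.5, 148, 112.25 and 70.75, so the match probe exceeded it by 48.5 at 10 nM and by 1.25 at 0.1 nM and lay below it on the other arrays. MiR-485-5p had 66.75, 112.5, 88.75 and 102.5, and its mismatch probe was lower on every array, by 4.25, 52, 39 and 78.75. MiR-370, which targets the fatty acid oxidation gene CPT1A in human liver cells, had 38.5, 90.25, 53.5 and 65.25. MiR-136 had 2, 13.25, 45.5 and 65.75, with an excess over its mismatch probe of 69.5, 80.25, 89.25 and 84 on the 4 arrays, so its mismatch probe was also higher at the higher doses. None of these 4 was detected, and their net signals do not order by dose except for miR-136.

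Other well known members of the cluster were at background on their human probes as well. MiR-127, which targets BCL6 in human cancer cells, gave 30.25, 65.5, 43.75 and 31 as net signals in order of dose. MiR-134, a regulator of dendritic spine size through Limk1 in rat neurons, had 9, -16.25, 2.75 and 50.75. MiR-431 had -30.25, -7.25, -56.25 and -27.75. The levels of these 3 human probes at 10 nM were thus 31, 50.75 and -27.75, all under the threshold of 144. Mouse probes named miR-134 and miR-431 were detected, as given below, and that named miR-127 was not. MiR-376a and miR-376b, which share their seed, had -18.25 and -11.75 at 10 nM and -7.75 and -1 untreated. MiR-368, now named miR-376c, had -0.25 at 10 nM and 1.5 untreated. The remaining 14 members, such as miR-381, miR-382, miR-154 and miR-410, had net signals between -83.75 and 98.5 over the 4 arrays.

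Over all 33 members, detected or not, the log2 ratio to untreated had medians of -0.15, -0.09 and 0.05 at 10, 1 and 0.1 nM, beside 0.00, 0.00 and -0.0049 for the 455. Of the 33, 13 were higher at 10 nM, 13 at 1 nM and 19 at 0.1 nM, and of the 455, 220, 226 and 217 were. Without miR-494 the ratios of the other 32 ran from -0.54 to 0.47 at 10 nM, from -0.46 to 0.50 at 1 nM and from -0.71 to 0.63 at 0.1 nM. MiR-494 lay above all of them at 1 and 10 nM and within their range at 0.1 nM. Since 31 of the 33 were detected nowhere, this range is that of background probes, and the position of miR-494 in it was not tested. On the normalised scale 17 of the 33 members (51.5%) were highest on the 0.1 nM array, beside 34.1% of the 455, and nearly all of these members are background probes.

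**Figure D3:**
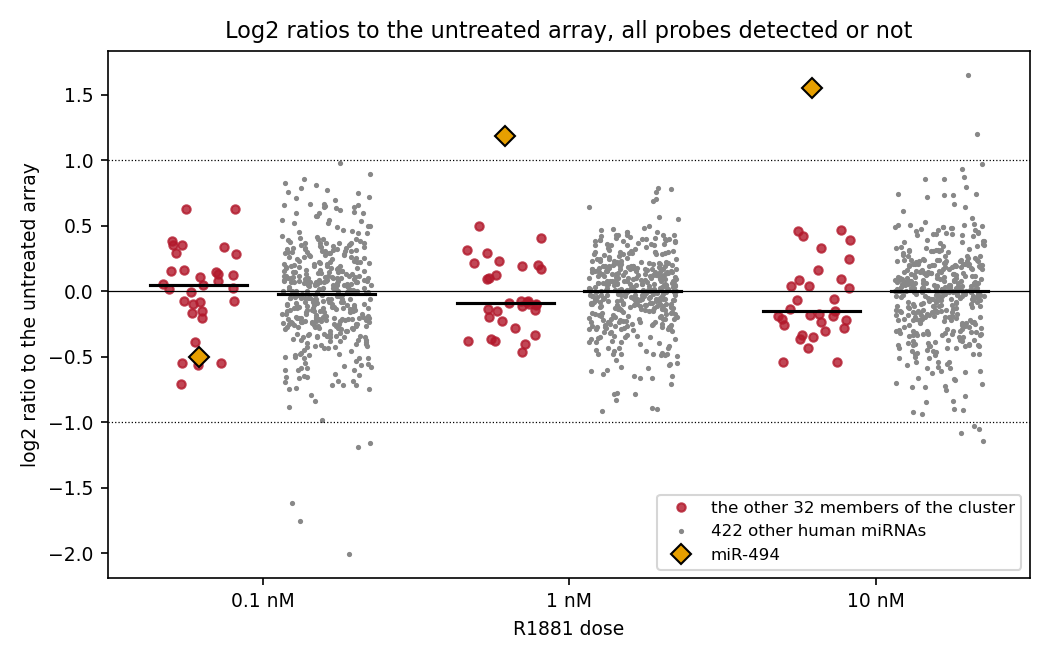
Log2 ratio to the untreated array (normexp and quantile normalised) at 0.1, 1 and 10 nM for the members of the cluster, left in each pair, and the 422 other human miRNAs, right; black bars are medians and dotted lines mark 2-fold. MiR-494, the diamond, is at 1.55 at 10 nM, 1.19 at 1 nM and -0.50 at 0.1 nM, and the other 32 members lie between -0.71 and 0.63.

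On each array the share of members whose match probe exceeded its own mismatch probe was below that of all human miRNAs, a difference that was not tested. At 10 nM this held for 22 of 33 members (66.7%), beside 74% of 450 human probes, and on the untreated array for 18 of 33 (54.5%), beside 64.3% of 451. At 1 nM it held for 19 of 32 (59.4%, beside 62.8%) and at 0.1 nM for 22 of 32 (68.8%, beside 75.9%), since 1 mismatch probe was listed at 0 on each of these arrays. The median excess in the cluster was 15.5 at 10 nM and 6.75 untreated. No mismatch probe of a human member was detected.

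**Figure D4:**
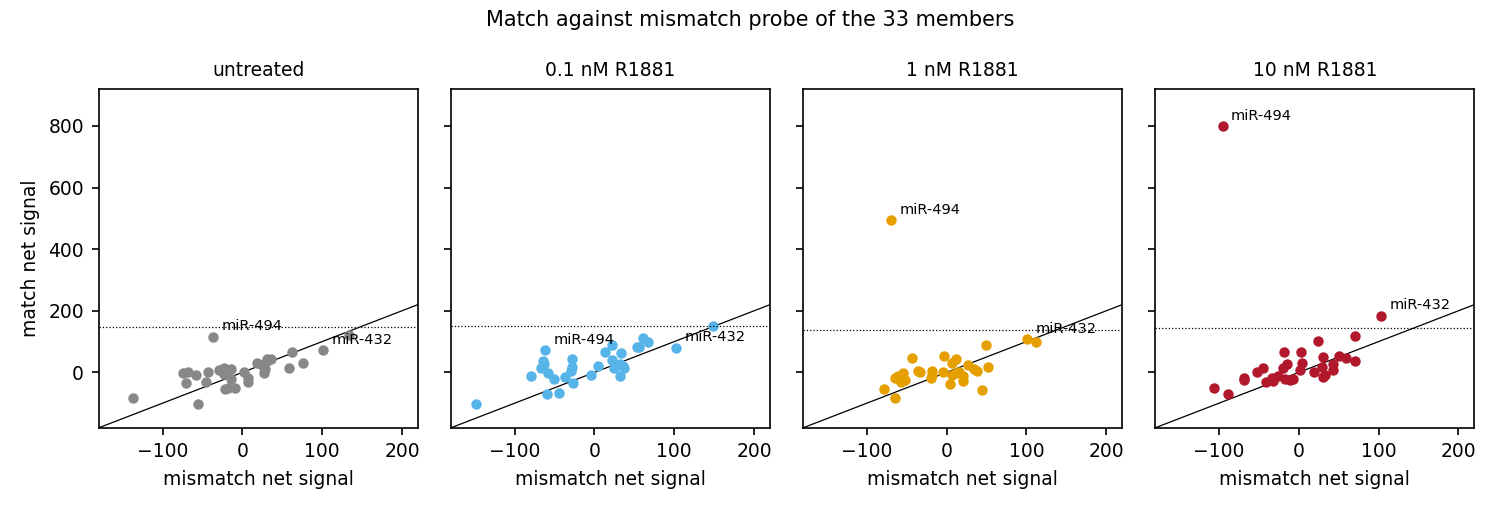
Net signal of each member's match probe against that of its mismatch probe, 1 panel per array, with the line of equality and the array's detection threshold (dotted). At 1 and 10 nM miR-494 stands 563 and 894 above its mismatch probe, while the other members lie within 103 of the line on all 4 arrays.

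Median levels on either side of the gap were not the same, a difference that was not tested. The 7 upstream members had median net signals of 30.25, 65.5, 45.5 and 65.25 in order of dose, and the 25 downstream members other than miR-494 had 1.5, 16.5, -2.5 and 1.5. Their median G and C content was 54.5% and 45.5%. Over the 32 members without miR-494, G and C content and net signal had a Spearman rho of 0.41, 0.34, 0.39 and 0.47 in order of dose (Pearson r 0.35, 0.39, 0.37 and 0.45). These are descriptions across probes that share the same 4 arrays, and base composition and position cannot be told apart here. MiR-494, at 45.5% G and C, is at the median of the cluster.

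The array carried 14 further human probes of the cluster out of 29 names listed, such as miR-299-3p, miR-409-3p, miR-654 and the star strands of miR-154 and miR-376a. None of them was detected, and their net signals ran from -54 to 114 over the 4 arrays. Their median log2 ratio to untreated was -0.01 at 10 nM, with 5 of 14 higher. Of 21 mouse or rat probes with a member's name, covering 19 members, 3 were detected, all mouse: miR-494, miR-134 and miR-431. Mouse miR-431 had net signals of 230.75, 115.5, 185 and 290.5 in order of dose and passed the threshold at 0, 1 and 10 nM. The human miR-431 probe was below the mismatch median on those same arrays. The letters of the probes were not used here, so no level of the mouse probe is set against that of the human one. The log2 ratio of mouse miR-431 to untreated at 10 nM was 0.04.

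Probes outside the cluster that most resembled miR-494 were found by the distance between their log2 ratios at 0.1, 1 and 10 nM. Of the human miRNAs detected on at least 1 array, miR-601 (distance 0.79), miR-197 (0.84) and miR-568 (0.95) came closest. Of these only miR-601 was detected untreated, with a log2 ratio of 0.93 at 10 nM. MiR-197 and miR-568 were detected on 1 array each, and miR-494 itself was not detected at 0 or 0.1 nM, so the distances rest in part on values not above background. Among 57 detected probes of other kinds, the closest were mouse miR-709 (0.39), mouse miR-494 (0.42) and the mismatch probe of miR-197 (0.44). Mouse miR-709 had net signals of 142, 87, 385 and 717 in order of dose. The mismatch probe of miR-197 had -44, -34, 90.25 and 218.75. At 10 nM, the only array that detected miR-197, this mismatch probe was brighter than the match probe, which had 178.25. Higher signals at 1 and 10 nM thus also occurred in a probe with 2 mismatched bases.

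Measures of the arrays and of marker lists also differed between doses. The number of mismatch probes detected was 4, 3, 7 and 16 in order of dose, and that of human miRNAs 62, 47, 61 and 74. Over the 40 human miRNAs detected on all 4 arrays, the median ratio of net signal to untreated came to 0.651, 0.985 and 0.999 at 0.1, 1 and 10 nM, so the 0.1 nM array was dimmer for bright miRNAs. The Bio B spike had net signals of 1276, 617, 1214.75 and 2550.5, and the Bio C spike 1563.25, 931.75, 1235.5 and 1889. Both spikes were thus highest at 10 nM and lowest at 0.1 nM, and both were lower at 1 nM than untreated. The 8 miRNAs listed for prostate epithelium summed to 22406.2, 11737.8, 17093.2 and 15840.5, lower on each treated array than untreated. The summed net signal of the 5 stromal and endothelial markers was 32.25, 129.5, 62.75 and 433, and that of the 3 neuronal ones 62.5, 65, 45.25 and 91.25. The 3 muscle markers summed to -140, -89.75, -51.25 and 83 and the 4 blood markers to -250.25, -86, -124 and -85. The part of each in the signal of miR-494 was not tested.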

How the data were processed

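MicroRNAs of LNCaP cells at 0, 0.1, 1 and 10 nM R1881 were measured on 4 one-colour CombiMatrix arrays, per the labels with 10 µg of Cy3-labelled RNA. Each file holds 1 mean signal per probe, which per the file headers and values is an intensity on a linear scale; no background step, scanner or genome build is given in the sources used here. The authors' deposited value table holds the same intensity minus the array's median mismatch signal (371.5, 355, 295.75 and 280.25 in order of dose), blank for dim probes; its scale is linear, its values are levels and not centred, with column medians of 489, 377.75, 493 and 333.25. That constant defines net signal. Mismatch probes listed at 0 were treated as missing. Intensities of the 1406 probes were corrected with normexp (offset 50), and quantile normalisation ran over the human, animal and viral match probes, with mismatch probes placed on that scale by interpolation, in limma 3.58.1 under R 4.3.3. Limma's trend was adjusted by Benjamini-Hochberg. Its code was also run on simulated data with known slopes and independent noise of a fixed size. That run does not show how the fit behaves on these 4 arrays. The number of arrays limits the precision. Members, lists and the naming rule (all members, their control probes, 3 closest patterns of each kind) were chosen with earlier results of these data known. Arms of unnumbered names come from naming history. Alternatives covered background, normalisation, detection, fold threshold, dose scale and left-out arrays.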

Additional observations from a re-analysis of the deposited data

Results flagged for a closer look

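Outside the human match probes of the cluster, mouse miR-494, mouse miR-134 and the mismatch probe of mouse miR-134 passed the threshold on treated arrays only. Mouse miR-431 passed it untreated as well, at 230.75. Mouse miR-494 had a net signal of 391.5 at 10 nM, against 7.75 untreated. Mouse miR-134 had 168.25 at 10 nM, against 90.75 untreated, while its own mismatch probe had 168.25 at 1 nM and 222.75 at 10 nM, against 78 untreated. The mouse miR-134 match probe was thus dimmer than its mismatch probe at 1 and 10 nM, and the human miR-134 probe was detected on no array.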

How the results depend on the processing

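Detection at 2 or 5 scaled deviations gave 4 or 1 of the 33 members detected, beside 119 or 52 of the 455 human miRNAs. The 95th percentile of the mismatch probes gave 6 members (miR-432, miR-433, miR-370, miR-485-5p, miR-412 and miR-494), beside 132 of the 455. The log2 ratio of miR-494 at 10 nM was 1.01 without background correction, 1.91 with median centring, 1.96 without normalisation and 2.44 with its own mismatch signal subtracted (floor 50) and the arrays centred on the 40 miRNAs detected throughout. At 1 nM these settings gave 0.74, 1.45, 1.38 and 1.64, and the first left 0 members at 2-fold or more. At 0.1 nM the value was -0.24 without background correction and 0.48 with mismatch subtraction and centring. The same subtraction without centring, chosen after seeing the data, gave 2.54, 1.88 and -0.20 at 10, 1 and 0.1 nM, so the turn at 0.1 nM came with the centring. Median centring placed the median of the 80 detected miRNAs at -0.44 at 0.1 nM and 0.11 at 10 nM, and relative to it miR-494 stood at -0.05 and 1.80. Subtraction with centring gave miR-494 a slope of 0.85 and a limma adjusted p of 0.0303. It was the 1 member called, beside 2 of all 80 human miRNAs. Subtraction without centring gave miR-494 a slope of 0.97 and a limma adjusted p of 0.444, with 0 members and 0 of the 80 called. The log2 ratio of miR-494 at 10 nM over 1 nM was 0.27, 0.45, 0.59, 0.80 and 0.67 without background correction, with median centring, without normalisation, and with mismatch subtraction with and without centring. With each array left out in turn, the slope ran from 0.53 to 1.03 and its limma adjusted p from 0.061 to 0.996. The causes of the other differences were not tested. The authors' table has no untreated value for miR-494 and a fit of miRNAs detected on all arrays holds no member, so neither gave a value. No paired analysis was possible because each dose has 1 array. Signal near background limits every member, miR-494 at 0 and 0.1 nM included.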
